A study of Mus musculus with 12 samples.

Results

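The baseline transcriptome described here is that of the untreated mouse colon. It was taken from 6 of the 12 libraries of the series, 1 library per mouse, chosen by their labels as the mice that drank water: 3 Tmem173fl/fl and 3 Tmem173iΔmye mice, pooled as 1 condition with no genotype test. All mice were C57BL/6N adults with both Tmem173 alleles floxed (Tmem173 encodes STING, a sensor of the innate response to DNA), and all had received 5 injections of tamoxifen, so no untreated library is from a mouse without the floxed alleles or the drug. Tmem173iΔmye mice also carried Lyz2-Creert2, a recombinase driven by the Lyz2 gene of myeloid cells and switched on by tamoxifen. The other 6 mice, 3 per genotype, had 7 days of DSS (dextran sulfate sodium), a polymer toxic to colon epithelium, in their water. The values are counts per gene and FPKM, in which a count is scaled to the length of the gene and the size of the library, a level per length that can be compared between genes.

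The colon wall has an epithelium of crypts, a lamina propria rich in immune cells, and layers of smooth muscle with their own nerve plexus. Its epithelium holds absorptive colonocytes, which take up water, sodium, chloride and the short-chain fatty acid butyrate, goblet cells, which secrete the mucus that keeps bacteria off the surface, and rarer enteroendocrine and tuft cells, all renewed from stem cells at the crypt base. Plasma cells below the epithelium make dimeric immunoglobulin A, which the epithelium carries into the lumen. In RNA from whole tissue, fewer cells of a type and less RNA per cell cannot be told apart.

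The 6 untreated libraries held 14189385 to 17467008 counts each, and all 12 held 13823237 to 18718915. Of 54532 annotated genes, 24504 had no count in any untreated library, and 13956 had a mean FPKM of at least 1, of which 12386 reached 1 in each of the 6 libraries. Single libraries had between 13787 and 13977 genes at or above 1 FPKM. The long noncoding RNA 4632428C04Rik was the last gene inside that floor, at 1.000003 FPKM, and Eif5a2 the first outside it, at 0.99964. In the untreated colon 5237 genes reached a mean of 10 FPKM, 410 reached 100 and 23 reached 1000. The defining markers of colon epithelium, smooth muscle and lamina propria were present in all 6 libraries, and 1 of the DSS libraries (Tmem173iΔmye replicate 5) stood apart from the other 5, as described with the DSS comparison.

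Abundance was concentrated in few genes. The 100 most abundant genes held 31.4% ± 1.18 of all FPKM (mean ± SD over the 6 libraries, as for every ± below), with 29.1% in the lowest library and 32.3% in the highest, and the 1000 most abundant held 59.5% ± 0.802. Ranked by counts without length correction, the top 100 held 20.1% of all counts and shared 63 genes with these 100. The top 10 held 13.8% ± 1.03. Of the 100 genes, 93 were protein-coding in the annotation and 10 lay in the mitochondrial genome. The list of ribosomal protein genes held 10 of them and that of nuclear subunits of oxidative phosphorylation 4. Lists of cell type and function genes covered 54 of the 100, with 7 colonocyte, 6 goblet cell, 6 general epithelial, 3 MHC class II, 3 mucin, 2 smooth muscle and 2 plasma cell genes, and some genes in more than 1 list. The gene ranked 100th had 283.8 FPKM.

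The most abundant transcript was mt-Co1 (MT:5328-6872), which encodes a subunit of cytochrome c oxidase. Its level was lowest at 9762.6 FPKM in Tmem173iΔmye mouse 3, had a median of 15157.2 and was highest at 16162.8 in Tmem173fl/fl mouse 3. By itself mt-Co1 took 4.43% ± 0.754 of all FPKM. It was followed among mitochondrial genes by mt-Cytb, a subunit of complex III, at 5128.6 ± 953.2 FPKM and mt-Nd1, a subunit of complex I, at 4166.8 ± 846.3. Mitochondrial genes together held 10.4% ± 2.01 of FPKM and 3.01% to 5.001% of counts per library.

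The leading nuclear gene was Lypd8 (chr11:58379043-58390728 on GRCm38), a surface protein of colonocytes that binds flagellated bacteria and keeps them from the epithelium. Lypd8 was at 6011.4 FPKM in the lowest library, 6859.5 at the median and 7854.8 in the highest, and all 6 libraries lay within a narrow range. Other colonocyte genes followed at lower levels. Guca2a, the precursor of the peptide guanylin that regulates salt and water secretion, was at 1030.3 ± 402.2 FPKM and ran from 572.6 to 1563.1. Krt20, a keratin of the upper crypt and surface, was at 740.4 ± 68.7 FPKM. The carbonic anhydrases Car1 and Car4 were at 495.8 ± 214.1 and 331.8 ± 25.8, the water channel Aqp8 at 330.1 ± 59.2 and the chloride-bicarbonate exchanger Slc26a3 at 117.6 ± 18.4. The 10 colonocyte genes summed to 10411.1 ± 1116.7 FPKM, 3.25% of the total, the largest sum among the 23 cell type lists.

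Genes shared by the whole epithelium were as prominent and more even. Krt8, the keratin of simple epithelia, was at 2207.8 FPKM in the lowest library, 2684.4 at the median and 2894.5 in the highest. Its relatives and partners were Krt19 at 1328.9 ± 190.2, the lectin Lgals4 at 949.5 ± 118.8 and the adhesion molecule Epcam at 842.5 ± 82.3 FPKM. All 12 general epithelial genes exceeded 1 FPKM. Only 1 of the 12 (Phgr1) had a between-mouse spread above the median of all genes.

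Goblet cell products were next in abundance. Muc2, the gel-forming mucin of the colon (chr7:141690340-141754693), was at 1139.6 FPKM in the lowest library, 1700.3 at the median and 2460.2 in the highest. Clca1, a protease secreted into the mucus (chr3:145003817-145032776), was at 2193.7, 1283.9 and 1032.9 FPKM in Tmem173fl/fl mice 1 to 3 and at 2983.0, 891.9 and 903.9 in Tmem173iΔmye mice 1 to 3. The values of Clca1 thus fell into a high pair, Tmem173fl/fl mouse 1 and Tmem173iΔmye mouse 1, and 4 lower libraries. Zg16, a lectin of the mucus that binds Gram-positive bacteria, was at 1526.7 ± 428.8 FPKM, the mucus protein Fcgbp at 690.4 ± 304.6 and the trefoil peptide Tff3 at 663.3 ± 129.3. The lineage factors Spdef and Atoh1 were far lower, at 37.5 ± 8.51 and 37.5 ± 6.21. The membrane-bound mucin Muc3 stood at 1704.5 ± 448.4 FPKM, close to Muc2, and the summed list of 9 goblet cell genes came to 7068.3 ± 1541.0.

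Antibody and antigen presentation genes formed the other part of the upper ranks. Igkc, the constant region of the kappa light chain, was at 1634.2 FPKM in the lowest library, 2174.1 at the median and 3385.9 in the highest. Igha, the constant region of immunoglobulin A, was at 621.6 ± 126.6 and Jchain, which joins its dimers, at 202.3 ± 37.4 FPKM. Pigr, the epithelial receptor that carries those dimers to the lumen, was at 1010.8 ± 112.6 and was thus more even over mice than the antibody genes. B2m, the light chain of MHC class I, was at 2646.2 ± 538.1 and the heavy chain H2-K1 at 1079.8 ± 220.5. Cd74, the invariant chain of MHC class II, was at 1478.5, 1280.1 and 1431.3 FPKM in Tmem173fl/fl mice 1 to 3 and at 610.5, 925.8 and 1510.1 in Tmem173iΔmye mice 1 to 3. The 7 class II genes summed to 1107.8 FPKM in Tmem173iΔmye mouse 1, the lowest, and 2883.8 in Tmem173iΔmye mouse 3, the highest.

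The remaining nuclear genes among the leading 25 served the cytoskeleton, protein synthesis and storage of iron, or were of the surface. Eef1a1, the elongation factor that brings aminoacyl-tRNA to the ribosome, was at 1974.2 ± 256.1 FPKM, the ribosomal stalk protein Rplp1 at 907.6 ± 174.2, the actin Actb at 984.7 ± 85.9, the actin-severing protein Dstn at 745.4 ± 112.6 and the ferritin chain Fth1 at 926.6 ± 95.5. Ceacam1, an adhesion molecule of epithelium, was at 835.0 ± 126.9 FPKM and Ly6a, a surface protein of the Ly6 family, at 770.7 ± 265.5, with its highest value, 1211.6, in Tmem173fl/fl mouse 1. The annotated miRNA gene Gm23935 was at 2169.0 ± 1573.0 FPKM, but its model is 57 bases long and it rested on a mean of 1989.3 counts. Mptx1, a mucosal pentraxin of the gut (chr1:174330518-174332873), ranged most widely among abundant protein-coding genes. It was at 1672.3, 229.6 and 589.8 FPKM in Tmem173fl/fl mice 1 to 3 and at 2090.7, 123.3 and 360.3 in Tmem173iΔmye mice 1 to 3.

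**Figure D1:**
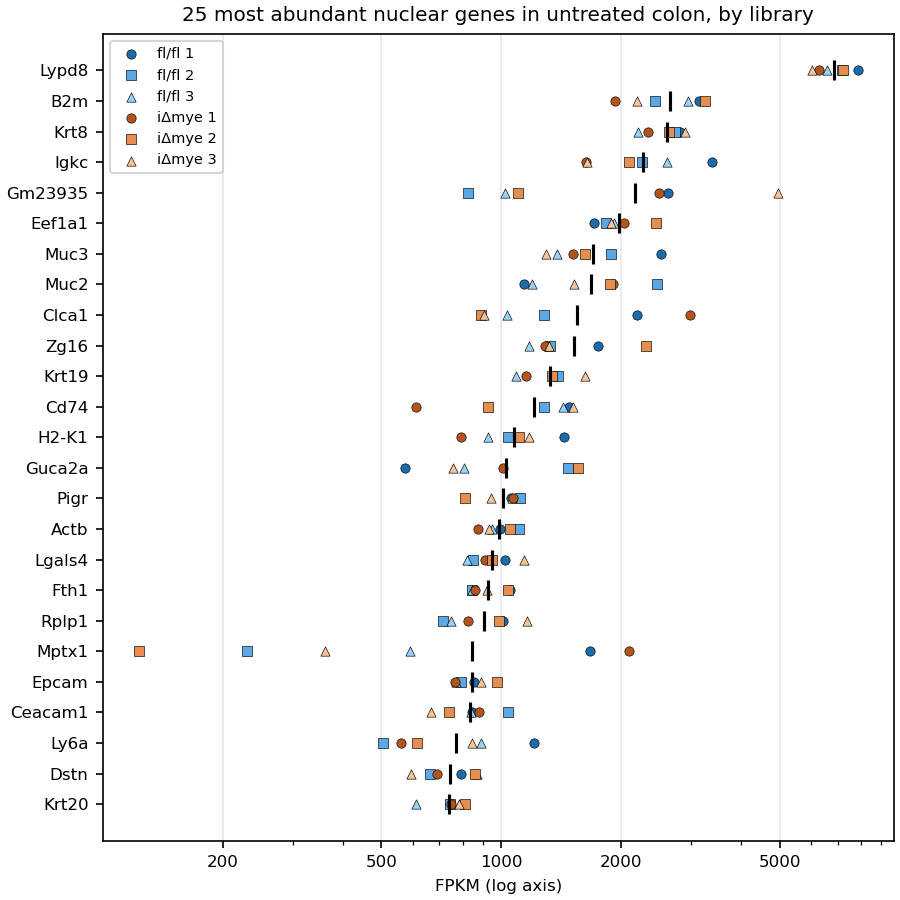
FPKM (log axis) of the 25 most abundant nuclear genes in the 6 untreated libraries, with 1 symbol per library (fl/fl is Tmem173fl/fl, iΔmye is Tmem173iΔmye) and a black bar at the mean. Lypd8 lies above the others in every library, Krt8 and Actb points lie close together, and Mptx1, from 123.3 to 2090.7 FPKM, spreads the most.

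The muscle and nerve layers were present in all 6 libraries at lower levels. Actg2 and Acta2, the actins of smooth muscle, were at 420.0 ± 79.6 and 413.3 ± 46.7 FPKM, the intermediate filament gene Des at 173.1 ± 27.6 and the myosin heavy chain Myh11 at 129.1 ± 20.7. Tagln, commonly among the strongest smooth muscle genes, was listed at 4.49 FPKM. In the GENCODE vM21 annotation 67.9% of its exon bases are shared with another gene, as is 50% or more for 1.12% of the genes at or above 1 FPKM, so its reads may have been left uncounted and its level is uncertain. The summed smooth muscle list was 1708.8 ± 220.0 FPKM. Ano1, the chloride channel of the interstitial cells of Cajal that pace the muscle, was at 42.3 ± 7.98 and Kit, their growth factor receptor, at 11.6 ± 2.35. Of 12 enteric neuron genes 11 exceeded 1 FPKM, led by the neuropeptide Vip at 8.02 ± 2.07, and the 12 summed to 38.1 ± 5.63. The 5 enteric glia genes summed to 4.74 ± 0.643 FPKM, and S100b, the highest, was at 1.02 ± 0.478.

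Stroma and immune cells other than plasma cells were low beside the epithelium. The collagen Col3a1 was at 53.3 ± 6.77 FPKM and the 8 fibroblast genes summed to 218.3 ± 23.1. Endothelial genes summed to 30.5 ± 4.72, with the lymphatic receptor Lyve1 at 9.19 ± 2.12 and the adhesion molecule Pecam1 at 5.38 ± 0.629. Macrophage genes summed to 133.2 ± 25.4, of which C1qa, a chain of complement C1q, gave 42.9 ± 11.1 and the receptor Csf1r 9.64 ± 1.17. T cell genes summed to 47.6 ± 11.6 FPKM (Trbc2, a constant region of the T cell receptor, 14.9 ± 3.80), B cell genes to 26.9 ± 10.5 (Cd79a, of the B cell receptor, 9.53 ± 3.60) and mast cell genes to 24.3 ± 3.999 (the protease Mcpt1, 12.6 ± 2.55). The protease Gzmb, of cytotoxic lymphocytes, was at 34.9 ± 10.3. The neutrophil list summed to 67.9 ± 26.6, but Ly6g alone gave 63.4 ± 27.6, while S100a8, the most typical transcript of these cells, was at 0.679 ± 0.805 and the chemokine receptor Cxcr2 at 0.0244 ± 0.0212. The 4 eosinophil genes summed to 1.204 ± 0.361 FPKM, all under 1 FPKM.

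Rare epithelial cells and the crypt base were measurable as well. The 10 enteroendocrine genes summed to 232.9 ± 41.6 FPKM, with peptide YY (Pyy) at 76.8 ± 26.8, Insl5, a peptide of distal gut L cells, at 68.2 ± 13.2 and the glucagon precursor Gcg at 33.4 ± 8.50. The tuft cell list summed to 10.3 ± 1.73, and its defining genes Trpm5, a cation channel, and Dclk1, a kinase, were at 1.79 ± 0.411 and 1.66 ± 0.268. Lgr5, the stem cell receptor for R-spondin, was at 1.09 ± 0.366 FPKM, and the niche regulator Lrig1 at 26.0 ± 3.77. Olfm4, a stem cell marker of the small intestine, was at 0.0153 ± 0.0271. Division genes were higher, with the sliding clamp Pcna at 42.2 ± 6.37, Mki67 at 35.3 ± 5.46 and the topoisomerase Top2a at 30.8 ± 4.62 FPKM. Of 10 small intestine genes 6 exceeded 1 FPKM, with the glucose carrier Slc5a1 at 44.8 ± 6.59 and the alkaline phosphatase Alpi at 15.1 (6.08 to 26.1 over the libraries), and the 10 summed to 93.0 ± 5.55. The disaccharidases Sis and Lct, of the same list, were at 0.0622 and 0.0247 FPKM.

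**Figure D2:**
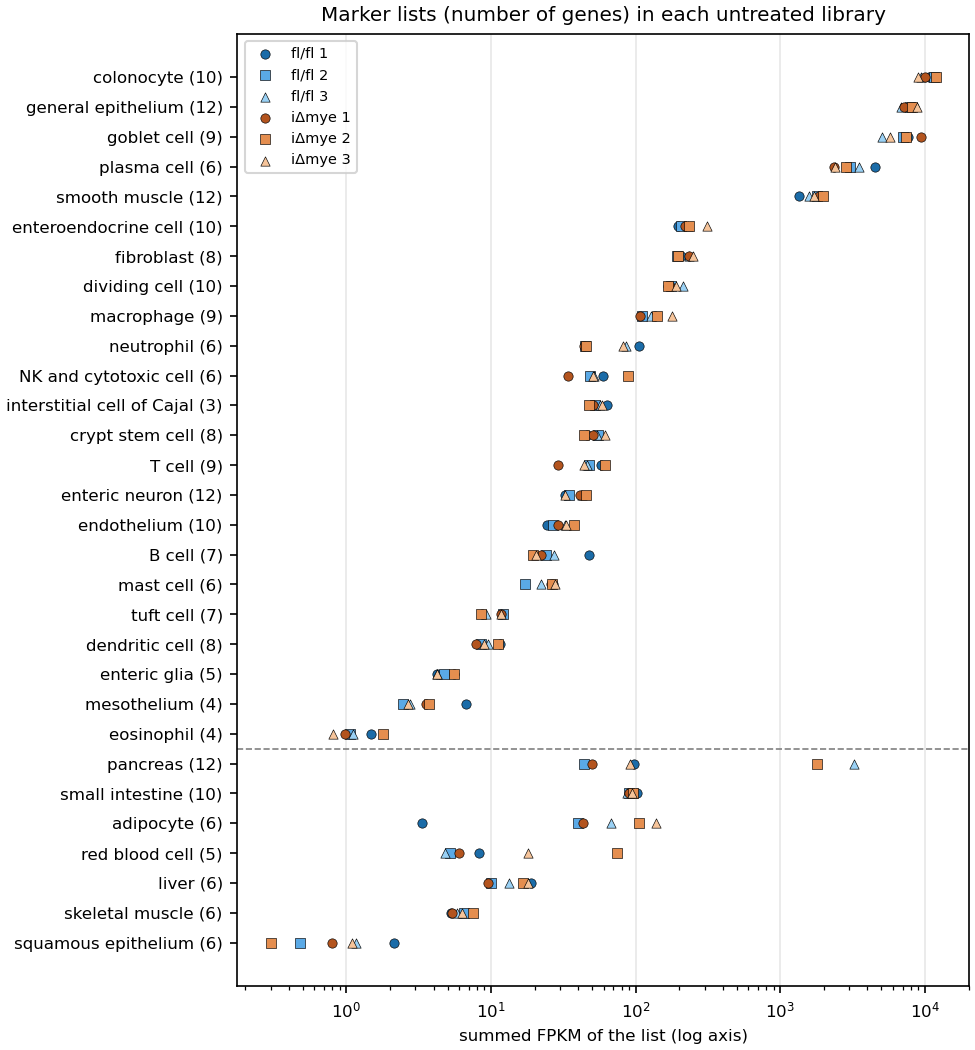
Summed FPKM (log axis) of each marker list in the 6 untreated libraries, with 1 symbol per library and the number of genes in brackets. Lists below the dashed line are of other tissues. Colonocyte, general epithelium and goblet cell lists lie highest, while the pancreas and adipocyte lists show the widest scatter, from 43.55 to 3210.9 and from 3.327 to 138.2 FPKM.

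By function, the transport and energy genes of the surface were strong. The sodium pump subunit Atp1b1 was at 458.6 ± 55.2 FPKM, and the basolateral water channel Aqp4 at 215.9 ± 61.2. Atp12a, the colonic proton-potassium pump, was at 101.9 ± 61.9 and reached 222.9 in its highest library. The butyrate carriers Slc5a8 and Slc16a1 were at 79.2 ± 10.5 and 78.8 ± 9.67 FPKM, and Acads, which opens the oxidation of butyrate, at 74.4 ± 7.22. All 9 genes of butyrate uptake and fatty acid oxidation exceeded 1 FPKM. Claudins led the junction list, with Cldn7 at 353.4 ± 36.0 and Cldn3 at 253.8 ± 48.97. Of cholesterol synthesis, Hmgcs1, the enzyme before the rate-limiting step, was at 104.3 ± 22.4 FPKM. Among genes that act on foreign compounds, Cyp2c55, a cytochrome P450 of the large bowel, was at 178.7 ± 89.5 and the glutathione transferase Gstm1 at 118.6 ± 9.64. The early response gene Fos was at 84.5 ± 15.2 FPKM and ran from 65.6 to 97.98 over the mice. Ribosomal protein genes summed to 12515.8 ± 1461.2 FPKM, with 80 of 83 above 1, and nuclear oxidative phosphorylation genes to 6737.9 ± 550.9, with 88 of 94 above 1.

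Tmem173 and Lyz2, the genes of the mouse model, were measured in every untreated library. Tmem173 was at 10.4, 6.07 and 9.73 FPKM in Tmem173fl/fl mice 1 to 3 and at 7.29, 6.20 and 9.12 in Tmem173iΔmye mice 1 to 3. Lyz2, a lysozyme of myeloid cells, was at 110.7, 112.5 and 206.3 FPKM in Tmem173fl/fl mice and 70.0, 56.7 and 85.8 in Tmem173iΔmye mice. These counts are over whole genes of whole tissue, and no genotype test was made.

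Variation between mice was then taken as the SD of log2(FPKM + 0.1) over the 6 libraries, for the 13956 genes at or above the floor. The median SD was 0.22, which corresponds to a factor of 1.16 around the mean, and the middle of the distribution ran from 0.16 to 0.33 (quartiles). The SD that counting error alone would give had a median of 0.07, and 73.2% of genes had more than 2 times their own counting SD. Spread depended on level. The 2219 genes between 1 and 2 FPKM had a median SD of 0.35, the 4226 genes between 10 and 50 FPKM 0.18, and the 410 genes at 100 FPKM or more 0.21. An SD above 1 was found for 507 genes, 3.63% of the total.

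The steadiest genes were of low to moderate level. Fbxo38, a substrate adaptor of a ubiquitin ligase, had the smallest SD, 0.03, with 17.9, 17.2 and 17.5 FPKM in Tmem173fl/fl mice 1 to 3 and 18.1, 17.5 and 17.7 in Tmem173iΔmye mice 1 to 3. The next were As3mt, which methylates arsenic, at 22.7 FPKM, Smarcal1, a helicase that remodels stalled replication forks, at 3.63, and Baiap2l1, an actin regulator of microvilli, at 56.9. Ppp2r5a and Ppp1r15b, regulatory subunits of the phosphatases PP2A and PP1, Ndufaf7, an assembly factor of complex I, and Myg1, Cdk19 and Brat1 completed the first 10, with SDs of 0.03 to 0.04. For 7 of the 10, Fbxo38 included, the SD was below the SD that counting error alone would give (0.04 for Fbxo38), so their order among the steadiest lies within counting error. Between them the 10 genes spanned means of 2.88 to 56.9 FPKM.

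**Figure D3:**
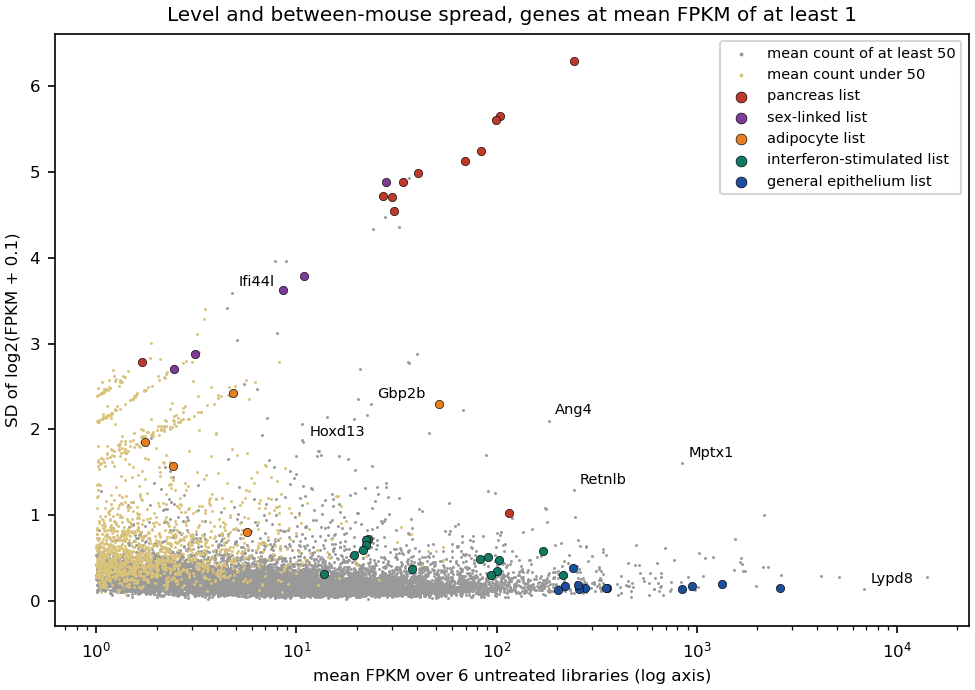
Between-mouse SD of log2(FPKM + 0.1) against mean FPKM (log axis) for 13956 genes in the untreated colon, 1 point per gene, with genes of a mean count under 50 in a lighter colour and members of 5 lists as large points. Pancreas and sex-linked genes form the upper edge, up to 6.30 for Ctrb1, and general epithelium genes lie at 0.13 to 0.39.

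The largest spreads belonged to genes of the exocrine pancreas, the gland that lies next to the colon in the mouse mesentery. Ctrb1, chymotrypsinogen (chr8:111686519-111691010), had the largest SD of all, 6.30. It had no count in Tmem173fl/fl mice 1 and 2 and Tmem173iΔmye mouse 1, which allows a level of up to 0.203 to 0.251 FPKM per library at 3 counts, and was at 849.6 FPKM in Tmem173fl/fl mouse 3, 609.9 in Tmem173iΔmye mouse 2 and 7.55 in Tmem173iΔmye mouse 3. The lipase Pnlip followed with 407.0, 211.4 and 3.11 FPKM in the same 3 libraries and no count elsewhere. Trypsinogens (Prss2, Try4, Try5 and 2210010C04Rik), elastases (Cela2a and Cela3b), carboxypeptidases (Cpa1 and Cpb1), lipases (Cel and Pnliprp1), the ribonuclease Rnase1, the lectins Reg1 and Reg2, the amylase genes Amy2b, Amy2a1 and Amy2a3, the zymogen granule protein Gp2 and the phospholipase Pla2g1b were likewise highest in Tmem173fl/fl mouse 3 and Tmem173iΔmye mouse 2. The noncoding RNA Gm42031, 27th in spread and among the first 25 once antigen receptor segments are set aside, was at 29.8 FPKM in Tmem173iΔmye mouse 2 and at most 0.175 in the others. The 12 pancreas genes summed to 96.9, 43.6 and 3210.9 FPKM in Tmem173fl/fl mice 1 to 3 and to 49.8, 1786.8 and 91.7 in Tmem173iΔmye mice 1 to 3. Cela1, the one member above 1 FPKM in all 6 libraries, made up most of the sum in the 4 low ones, at 96.9 and 43.3 FPKM in Tmem173fl/fl mice 1 and 2 and 49.4 and 66.8 in Tmem173iΔmye mice 1 and 3. Of the 50 most variable genes 11 were on the pancreas list, 5 were antigen receptor segments and 19 had a mean count under 50.

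Promoter sequence of Prss2 is given because it belongs to the group with the widest spread. The motif CACCTG (reverse complement CAGGTG), searched on both strands in the 250 bases upstream of the gene start as RefSeq gives it on GRCm38.p6, occurred in 7 of 11 pancreas-list genes with an entry and in 19.4% of the 27025 genes of the table. It is a form of the E-box, to which many helix-loop-helix factors bind, and the capitals below mark it in the window chr6:41521526-41521775 on the plus strand, 169 bases before the start. A match describes the letters only.
Prss2: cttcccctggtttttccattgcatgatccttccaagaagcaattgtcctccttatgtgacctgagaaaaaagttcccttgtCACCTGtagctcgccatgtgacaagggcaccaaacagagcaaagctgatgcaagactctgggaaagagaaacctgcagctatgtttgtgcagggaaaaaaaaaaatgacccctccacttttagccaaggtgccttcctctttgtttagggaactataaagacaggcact

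Sex-linked genes came next. Xist, the RNA of the inactive X chromosome, had an SD of 4.88 and was at 100.4 FPKM in Tmem173fl/fl mouse 3 and 67.2 in Tmem173iΔmye mouse 3 and between 0.0110 and 0.0246 in the other 4. The Y-linked genes Eif2s3y, a translation initiation subunit, and Ddx3y, an RNA helicase, were at 0 in those same libraries and at 8.86 to 21.8 and 11.4 to 14.6 FPKM in the other 4. The labels used here give no sex. The split was present within both genotypes, and it differed from the pancreas split by 1 library in each pair.

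Another group had sharp steps of another kind. Gbp2b (also Gbp1, an interferon-induced GTPase, chr3:142594847-142619179) was at 65.2 FPKM in Tmem173fl/fl mouse 2 and 64.4 in Tmem173iΔmye mouse 3, and at 3.39, 3.52, 1.89 and 3.48 in the other 4. Ifi44l, an interferon-induced gene (chr3:151758737-151762892), was at 16.7 and 11.8 FPKM in the same libraries, at 0.0862 in Tmem173iΔmye mouse 1 and at 0 in the other 3. Their neighbours of the same families did not share the split. Gbp2, the next gene to Gbp2b, was at 98.5 and 122.4 FPKM in the high pair and at 92.0 to 198.8 in the others, and Ifi44, next to Ifi44l, at 21.2 and 12.9 against 13.6 to 34.1. The starts of Gbp2b and Ifi44l lie 9.16 Mb apart on chromosome 3. The 37 other genes above the floor between them had a median SD of 0.21, beside 0.22 for all genes above the floor.

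The upstream windows of this group of genes, and of Isg15 and Ifit1 as strongly expressed interferon-stimulated genes, are shown beside their values. Gbp2b and Ifi44l are the pair with the step, and Gbp2 and Ifi44 their neighbours without it. Each is the 250 bases before the RefSeq gene start on GRCm38.p6, 5′ to 3′ on the strand of the gene. Capitals mark GAAANNGAAA or its reverse complement TTTCNNTTTC, the core of the interferon-stimulated response element, searched on both strands, and overlapping matches run together. The motif was in 3.46% of 27025 genes, in 6 of the 9 interferon-stimulated genes of a list of 14 that have an entry, and in 6.15% of the 65 entries among the 100 most abundant genes. Windows are chr3:142594597-142594846 (plus) for Gbp2b, chr3:142620413-142620662 (plus) for Gbp2, chr3:151762892-151763141 (minus) for Ifi44l, chr3:151749911-151750160 (minus) for Ifi44, chr4:156200819-156201068 (minus) for Isg15 and chr19:34640639-34640888 (plus) for Ifit1.
Gbp2b: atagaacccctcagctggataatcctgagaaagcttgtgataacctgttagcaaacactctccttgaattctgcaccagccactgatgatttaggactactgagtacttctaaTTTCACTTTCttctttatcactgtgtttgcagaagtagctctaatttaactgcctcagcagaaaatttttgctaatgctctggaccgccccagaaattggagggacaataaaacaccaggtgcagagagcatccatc
Gbp2: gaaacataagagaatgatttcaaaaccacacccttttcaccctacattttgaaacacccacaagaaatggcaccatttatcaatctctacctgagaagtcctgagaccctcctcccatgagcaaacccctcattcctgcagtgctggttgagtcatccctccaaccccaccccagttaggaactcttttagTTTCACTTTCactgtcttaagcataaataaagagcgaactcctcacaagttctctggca
Ifi44l: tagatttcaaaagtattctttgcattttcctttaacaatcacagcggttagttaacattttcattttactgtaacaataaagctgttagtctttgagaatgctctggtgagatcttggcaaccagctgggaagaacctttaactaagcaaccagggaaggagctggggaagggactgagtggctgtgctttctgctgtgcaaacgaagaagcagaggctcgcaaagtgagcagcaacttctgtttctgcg
Ifi44: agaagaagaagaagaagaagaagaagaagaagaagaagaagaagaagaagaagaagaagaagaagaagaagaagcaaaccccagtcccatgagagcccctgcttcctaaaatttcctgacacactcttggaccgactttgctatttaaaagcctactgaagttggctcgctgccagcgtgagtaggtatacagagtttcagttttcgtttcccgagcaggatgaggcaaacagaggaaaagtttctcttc
Isg15: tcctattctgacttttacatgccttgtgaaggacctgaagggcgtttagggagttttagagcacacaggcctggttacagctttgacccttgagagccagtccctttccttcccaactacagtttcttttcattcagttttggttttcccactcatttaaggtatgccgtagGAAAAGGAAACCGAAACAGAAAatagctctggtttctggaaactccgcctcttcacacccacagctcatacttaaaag
Ifit1: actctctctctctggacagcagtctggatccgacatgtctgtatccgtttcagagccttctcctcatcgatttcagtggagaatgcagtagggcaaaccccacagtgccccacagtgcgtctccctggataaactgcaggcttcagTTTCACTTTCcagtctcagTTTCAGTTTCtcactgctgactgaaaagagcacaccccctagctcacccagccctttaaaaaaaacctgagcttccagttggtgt
Gbp2b and Gbp2 each held 1 match, 137 and 59 bases before the start, Ifit1 held 2 and Isg15 held 3. Ifi44l and Ifi44 held none in this window, nor did Irf7 and Oasl2 of the list, which says only that these letters are absent there.

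Across the 12379 genes with a mean count of at least 50 at or above the floor, 67 had a gap of at least 4-fold between neighbouring libraries in their order. Of these 67 genes, 23 were high in Tmem173fl/fl mouse 3 and Tmem173iΔmye mouse 2 only, the libraries with the highest sums of pancreas genes. A further 9 were lowest in Tmem173fl/fl mouse 1, where Adipoq, Plin1 and Reg3b were at 0 and Car3, Cfd, Retn, Apol10c-ps, Ugt2b5 and Mal were below the other 5 libraries, 10 were antigen receptor segments and 7 were pseudogenes, of which Amy2b is also among the 23 and Apol10c-ps among the 9. Rps3a2, a processed pseudogene of the ribosomal protein gene Rps3a1 (chr14:88123017-88123808), was at 91.2 and 114.3 FPKM in Tmem173fl/fl mouse 1 and Tmem173iΔmye mouse 1 and at 1.08 to 4.57 in the other 4, while Rps3a1 was at 305.1 and 297.7 against 440.2 to 622.9. Rps3a3, another copy, split the same way. Reads of such near-identical copies may be assigned to either, so these levels are uncertain.

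**Figure D4:**
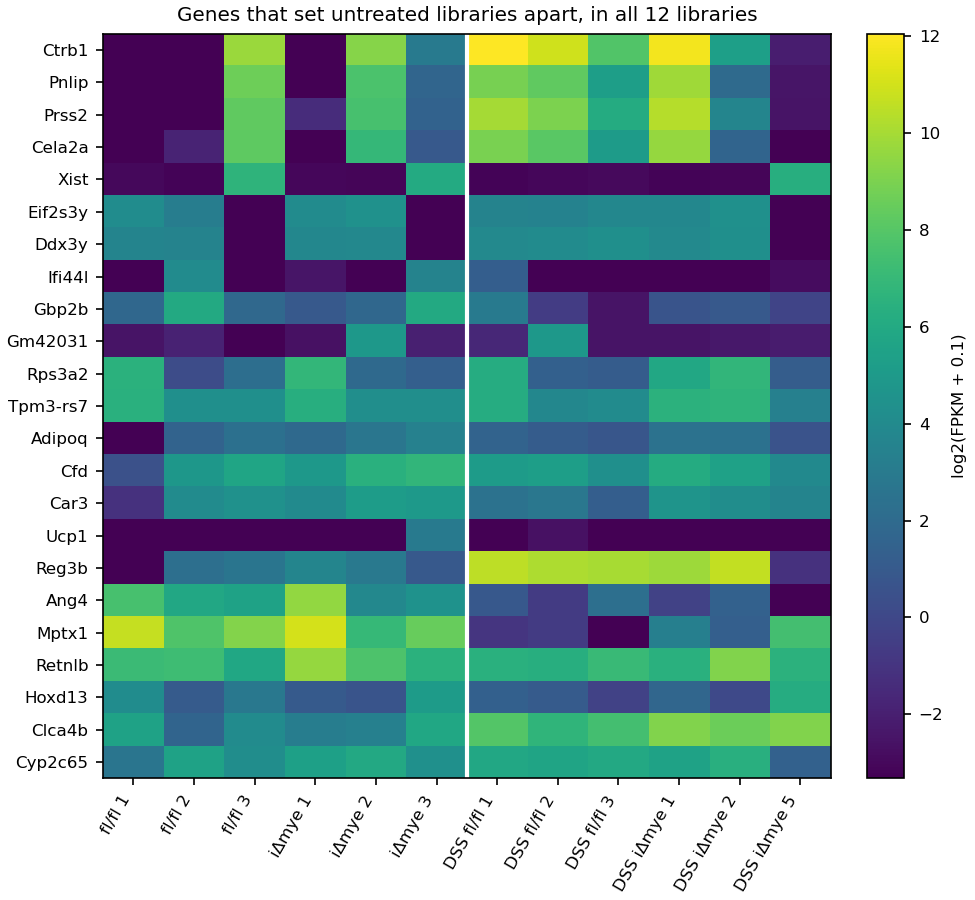
Heat map of log2(FPKM + 0.1), by colour, for genes named in the text with large differences between untreated libraries, with the 6 untreated libraries left of the white line and the 6 DSS libraries right of it. Pancreas, sex-linked, Gbp2b and Ifi44l, and adipocyte genes each pick out different untreated libraries, and Ctrb1 is high in 4 of the 6 DSS libraries.

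Fat cell genes were lowest in 1 library. Adipoq, the hormone adiponectin, was at 0 in Tmem173fl/fl mouse 1, at 2.82 and 4.98 FPKM in Tmem173fl/fl mice 2 and 3 and at 3.78, 6.48 and 10.8 in Tmem173iΔmye mice 1 to 3. Cfd, the protease adipsin, was at 1.28 in the low library and at 28.0 to 111.8 in the other 5, and Car3, a carbonic anhydrase of fat and muscle, at 0.359 against 16.6 to 36.3. Ucp1, the uncoupling protein of brown fat, had counts in Tmem173iΔmye mouse 3 alone, at 7.88 FPKM. Fat lies along the mesenteric border of the colon, and the part of attached tissue in these values was not tested.

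Epithelial genes also varied between mice. Ang4, an antimicrobial ribonuclease, was at 194.2, 59.0 and 46.5 FPKM in Tmem173fl/fl mice 1 to 3 and at 755.8, 14.5 and 22.6 in Tmem173iΔmye mice 1 to 3. Retnlb, an antibacterial protein of goblet cells, peaked in the same Tmem173iΔmye mouse 1, at 791.4 FPKM, and lay between 57.8 and 215.8 in the others. Mptx1, Clca1 and Ang4 each had their 2 highest values in Tmem173iΔmye mouse 1 and Tmem173fl/fl mouse 1. Cyp2c55 and its relative Cyp2c65 were lowest in Tmem173fl/fl mouse 1, at 52.0 and 6.22 FPKM, against 105.8 to 307.4 and 18.2 to 61.7 in the other 5. Clca4b ran the other way, at 46.0 and 57.0 FPKM in Tmem173fl/fl mouse 1 and Tmem173iΔmye mouse 3 and at 2.99 to 17.1 in the rest. Reg3b, an antibacterial lectin, was low throughout, from 0 in Tmem173fl/fl mouse 1 to 12.6 in Tmem173iΔmye mouse 1.

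Genes that mark position along the gut differed between libraries. Hoxd13, a homeobox gene of the posterior end of the body, was at 17.6, 2.02 and 6.90 FPKM in Tmem173fl/fl mice 1 to 3 and at 1.93, 1.51 and 34.9 in Tmem173iΔmye mice 1 to 3. Hoxb13, likewise posterior, was at 110.9, 61.5 and 84.6 and at 49.5, 38.6 and 105.8 FPKM. Both genes had their 3 highest values in Tmem173fl/fl mice 1 and 3 and Tmem173iΔmye mouse 3. Hoxa13 was even, at 24.9 to 34.7 FPKM with an SD of 0.16. The part of the site of sampling in the spread of other genes was not tested.

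Interferon-stimulated genes were expressed in every untreated library. All 14 exceeded 1 FPKM and all 14 had an SD above the median of all genes, with a median of 0.50. Their sum was 1645.4, 896.1 and 729.3 FPKM in Tmem173fl/fl mice 1 to 3 and 812.1, 1010.7 and 987.8 in Tmem173iΔmye mice 1 to 3. Tmem173fl/fl mouse 1 was thus the highest, and the other 5 overlapped between the genotypes. Ifi27l2b was the most abundant, at 214.4 ± 47.0 FPKM, followed by the ubiquitin-like Isg15 at 169.6 ± 75.2 and the transcription factor Irf7 at 102.9 ± 36.3, and the antiviral GTPase Mx1 had the largest SD, 0.73.

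Immunoglobulin variable segments varied widely between mice. Of 218 annotated heavy and light chain V genes, 157 exceeded 1 FPKM, their median SD was 1.11, and 90 had an SD above 1. Their sum was 2797.1 ± 417.6 FPKM with a range of 2504.0 to 3552.1, where a sum over many segments is steadier than its parts by construction. Igkv4-74 was at 68.9 FPKM in Tmem173fl/fl mouse 1 and 0.602 to 5.26 in the other 5. The 15 clock genes summed to 91.0 ± 3.78 FPKM, again a sum over many genes, while Per2 alone ran from 8.56 to 22.2. Gene by gene, the general epithelial genes and nuclear oxidative phosphorylation genes were steady, with median SDs of 0.16 and 0.19.

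To show where the untreated colon differed from the rest of the series, the gene lists were read in a fit of all 12 libraries. Log2 fold changes are untreated minus DSS. The lists were chosen with earlier results of these data known, so their counts are descriptions and no independent test. Of 24102 genes tested, 4.42% were higher in untreated colon and 11.0% lower (edgeR quasi-likelihood test, Benjamini-Hochberg adjusted p under 0.05 and at least 2-fold), with a median log2 fold change over all genes of 0.02. In that comparison the DSS library of Tmem173iΔmye replicate 5 stood apart, with Reg3b at 0.363 FPKM against 879.4 to 1559.8 in the other 5. Xist was at 78.9 there against at most 0.0308, and the Y-linked Eif2s3y and Ddx3y were at 0. Untreated Tmem173fl/fl mouse 3 and Tmem173iΔmye mouse 3 shared that sex-linked pattern, with Xist at 100.4 and 67.2. Without DSS replicate 5 the shares were 5.67% and 13.1%, and list counts without it follow in brackets. With Tmem173iΔmye libraries alone the shares over all genes were 0.597% higher and 1.48% lower, and with Tmem173fl/fl libraries alone 7.61% and 14.9%, so list counts from these fits are read against those shares. Pancreas genes were high in 4 of 6 DSS libraries too, with Ctrb1 at 235.0 to 4232.4 FPKM, 40.2 in Tmem173iΔmye replicate 2 and 0.135 in replicate 5. The position marker Hoxb13, at 38.6 to 110.9 FPKM in untreated colon, was at 0.282 to 13.0 in 5 DSS libraries and 86.5 in Tmem173iΔmye replicate 5. The posterior Hox list was split, with 2 of 8 genes higher in untreated colon (4) and 1 lower (1), median 0.58. Hoxd10, of that list, was at 0.290 to 5.11 FPKM untreated and 1.42 to 12.7 with DSS. The part of the site of sampling in the differences below was not tested.

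Interferon-stimulated genes were the list with the largest share higher in untreated colon, 14 of 14 (14 of 14), with a median log2 fold change of 2.20. Leaving out the 2 untreated libraries highest in pancreas genes gave 13, with 4.02% of all genes higher and 9.77% lower. Isg15 was at 101.2 to 305.1 FPKM untreated and 6.49 to 31.3 with DSS, with no overlap (log2 fold change 3.10, SE 0.41, edgeR adjusted p 0.00016). Ifit1, which binds foreign RNA, was at 58.5 to 139.4 against 5.81 to 23.8 FPKM, again with no overlap (log2 fold change 2.69, SE 0.35, edgeR adjusted p 0.00015). Genes of dividing cells were higher in 7 of 10 (9 of 10), median 1.44, as Mki67 at 26.7 to 41.4 FPKM against 6.07 to 17.3. Of colonocyte genes 4 of 10 were higher (4), median 0.84, and 1 was lower. Aqp8 was at 234.1 to 410.6 FPKM against 36.8 to 150.8, also apart (log2 fold change 2.06, SE 0.24, edgeR adjusted p 7.4e-05). The gene that was lower was Car1 (log2 fold change -1.23, SE 0.32, edgeR adjusted p 0.0106). The colonocyte count fell to 2 without the 2 untreated libraries highest in pancreas genes. Goblet cell genes were higher in 4 of 9 (4), median 0.58, led by Clca1 at 891.9 to 2983.0 against 57.1 to 755.1 FPKM, and the count was 2 without untreated Tmem173fl/fl mouse 1, with 3.88% of all genes higher and 9.52% lower. Cholesterol synthesis genes were higher in 6 of 10 (6), median 1.10. With Tmem173iΔmye libraries alone, where 0.597% of all genes were higher, the interferon-stimulated count was 12, the dividing cell count 4, the colonocyte count 1, the goblet cell count 0 and the cholesterol count 0. With Tmem173fl/fl libraries alone, where 7.61% were higher, these counts were 13, 9, 6, 5 and 6.

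Untreated colon was lower for stromal, vascular, nerve and neutrophil genes. All 10 endothelial genes were lower (10), median -1.61, as were 7 of 8 fibroblast genes (7), median -1.72, 10 of 12 enteric neuron genes (9), median -1.18, and 7 of 9 macrophage genes (7), median -1.18. Pecam1 was at 4.97 to 6.60 FPKM untreated against 7.79 to 26.4 with DSS, and the collagen Col3a1 at 43.8 to 59.8 against 88.4 to 450.6, neither with overlap. With Tmem173iΔmye libraries alone, DSS replicate 5 among them, 1.48% of all genes were lower, and 0 endothelial, 1 fibroblast, 2 neuron and 1 macrophage genes passed. With Tmem173fl/fl libraries alone, where 14.9% of all genes were lower, these counts were 10, 8, 11 and 7. Markers of the outer lining and of blood were lower beside them. All 4 mesothelium genes were lower (4), median -1.47, with sums of 2.46 to 6.69 FPKM untreated and 5.94 to 22.1 with DSS, and 2 of 5 red blood cell genes (4), median -2.72, with sums of 4.80 to 73.9 and 29.3 to 405.7. The red blood cell count was 5 without untreated Tmem173iΔmye mouse 2, the highest untreated library, and 1 with any single one of the other 5 untreated libraries left out, and both lists had 0 with Tmem173iΔmye libraries alone. With Tmem173fl/fl libraries alone 3 mesothelium and 5 red blood cell genes were lower. The part of attached tissue and blood in the stromal, vascular and nerve values was not tested. All 6 neutrophil genes were lower (6), median -5.60, and S100a9, a calcium-binding protein of neutrophils, was at 0.126 to 2.47 FPKM against 8.51 to 317.1. The epithelial defence list split, with 7 of 11 lower (7) and Ang4 the 1 higher (2). With Tmem173iΔmye libraries alone 4 neutrophil and 5 epithelial defence genes were lower, and with Tmem173fl/fl libraries alone 6 and 6. Lcn2, which binds bacterial siderophores, was at 0.757 to 1.49 FPKM untreated and 5.31 to 390.9 with DSS, while Ang4 was at 14.5 to 755.8 untreated and 0 to 4.78 with DSS (log2 fold change 6.61, SE 1.15, edgeR adjusted p 0.00094).

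Several lists had no call, which does not show that their genes were unchanged. In simulated data 36% of genes with a log2 change of 1 were called. General epithelial and smooth muscle genes had 0 of 12 called each (0 and 0), with medians of 0.64 and 0.11, and T cell and MHC class II genes had 0 of 9 and 0 of 7, with medians of 0.13 and 0.66. B cell genes had 0 of 7, with a median of -0.77, and pancreas genes 0 of 12, with a median of -2.30. Without the 2 untreated libraries highest in pancreas genes 11 of these 12 passed as lower, a count that the choice of libraries itself produces and that is no test of the list. Krt8 was at 2207.8 to 2894.5 FPKM untreated and 788.6 to 1980.1 with DSS, without overlap, but its log2 fold change of 0.89 (SE 0.19, edgeR adjusted p 0.00388) was under 2-fold. With Tmem173fl/fl libraries alone 5 general epithelial and 7 MHC class II genes were higher in untreated colon, beside 7.61% of all genes. Tmem173 and Lyz2 were both lower untreated, with log2 fold changes of -0.98 (SE 0.18, edgeR adjusted p 0.00154) and -1.43 (SE 0.20, edgeR adjusted p 0.00025), the first just under 2-fold.

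**Figure D5:**
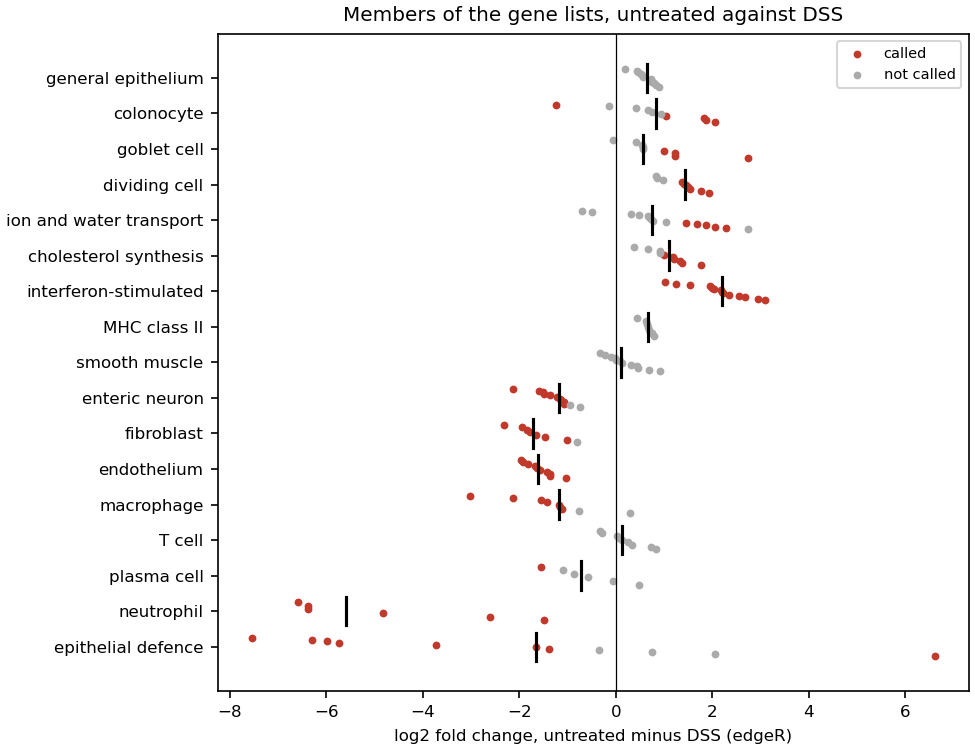
Log2 fold change, untreated minus DSS, of members of the gene lists, 1 point per gene (edgeR fit), red where called and grey where not. A black bar marks the list median, and genes are set slightly apart in height for sight only. All 14 interferon-stimulated genes lie above 0 with a median of 2.20, while neutrophil, fibroblast and endothelial genes lie below it.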

How the data were processed

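Colon RNA of 12 mice was sequenced as polyA-selected libraries (NEBNext Ultra kit), 1 per mouse. The authors deposited whole-number counts per gene and FPKM values derived from them. The submitters' processing notes name CASAVA 1.8, fastp, HISAT2 2.0.5, featureCounts 1.5.0-p3, DESeq2 1.20.0 and the build GRCm38/mm10. Whether strand was used in counting is not given in the sources used here. The 25 deposited columns of the authors' own comparisons (group means, log2 fold changes and p-values) were not used. The FPKM scale of the untreated libraries differed from TMM library sizes by 1.01 to 1.02 times.

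Groups came from the sample titles. The 6 untreated libraries were pooled. Genes were ranked by mean FPKM, and by the SD of log2(FPKM + 0.1) at a mean FPKM of at least 1. The counting SD followed from the counts. Named genes were the 25 nuclear genes of highest mean and the 3 highest mitochondrial genes, the 25 genes with the largest SD (antigen receptor segments as a group) and the 10 with the smallest, up to 4 leading members of each list with its most variable and near-0 members, and Tmem173 and Lyz2. Gbp2b, Gbp2, Rps3a1, Rps3a2, Rps3a3, Car3, Ucp1, Clca4b, Gm21887, mt-Co3, Igkv4-74 and some members further down a list were chosen after their values were seen. Some genes are not reported here. The members and lists were chosen with earlier results of these data known.

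Untreated and DSS libraries were compared with edgeR 4.0.16 (quasi-likelihood, TMM, genotype as a covariate) in R 4.3.3 on counts of 24102 genes that reached an FPKM of 0.1 in 3 or more libraries. Calls needed a Benjamini-Hochberg adjusted p under 0.05 and at least 2-fold. DESeq2 1.42.0 and limma 3.58.1 were alternatives. In simulated data 36% of genes with a log2 change of 1 were called (52% by adjusted p alone). For a log2 change of 2 the share called was 87%. Other alternatives were filters, pseudocounts, scalings, each library left out in turn, and a replicate block. Promoters came from RefSeq (GRCm38.p6) and matched genes by symbol. Exon overlap came from GENCODE vM21, which held 54409 of the 54532 gene identifiers. Python 3.11.15 with pandas 2.3.3 was used for the summaries.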

Additional observations from a re-analysis of the deposited data

Results flagged for a closer look

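Over the 6 untreated libraries, 137 values (the named genes and list sums) were examined for a library whose gap to its nearest neighbour was a larger part of the whole log2 range than Dixon's 95% critical value for 6 allows. Of these, 10 met this rule. Chance gives about 1 in 20 for groups not chosen by their values, and that rate cannot be applied here, since many of the genes were named for a wide spread and the adipocyte list counts Adipoq, Cfd and Plin1 again. In 5 of the 10 the low library was Tmem173fl/fl mouse 1, and all 5 were fat cell values. Adipoq (0.72 of the range) was at 0 against 2.82 to 10.8 FPKM, Cfd (0.685) at 1.28 against 28.0 to 112, Car3 (0.821) at 0.359 against 16.6 to 36.3 and Plin1 (0.717), which coats lipid droplets, at 0 against 1.40 to 4.28. The summed adipocyte list (0.664) was at 3.33 against 39.8 to 138.2.

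The other 5 were of different libraries. Ucp1 (1 of the range) was at 7.88 FPKM in Tmem173iΔmye mouse 3 and at 0 in the other 5, and the summed enteroendocrine list (0.64) was also highest in that mouse, at 312.9 against 197.0 to 232.6. Gm42031 (0.823) was at 29.8 in Tmem173iΔmye mouse 2 against at most 0.175, and the DSS library of Tmem173fl/fl replicate 2 held it at 29.6. The gene model Gm21887 (0.72) was at 0.174 in Tmem173fl/fl mouse 2 against 9.62 to 38.8. Krt20 (0.69) was at 611.5 in Tmem173fl/fl mouse 3 against 743.3 to 811.5 FPKM.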

How the results depend on the processing

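The 100 most abundant genes held 20.1% when counts without length correction replaced FPKM, with 63 of the 100 genes shared, and 24.6% without mitochondrial genes. Leaving out 1 mouse gave 31.2% to 31.9% and 96 to 99 shared genes. Of the 50 most variable genes, 32 were shared at a pseudocount of 1, 33 when ranked by range, 27 at a floor of 5 FPKM, and 37 to 43 with 1 mouse left out. Settings chosen after seeing the data gave 31 at a mean count of at least 50 and 9 when the 2 libraries with the highest pancreas-list sums were also left out. The latter ranking, from which the choice of libraries itself removes the pancreas genes, held 12 antigen receptor segments in its first 50 and was led by Xist, Ifi44l and Eif2s3y. The number of genes at or above the floor (11737 to 16169) and the median SD (0.18 to 0.32) moved less than 1.5 times or 1 SD. Of 540 gene-level alternatives for SDs, 26 moved by over 1.5 times, in 26 different genes and 11 of them without Tmem173fl/fl mouse 1. For means the rule was a move by more than their SD over mice. Leaving out 1 of 6 libraries cannot move a mean that far, so that rule tested nothing. By ratio, leaving out 1 library moved the means of 35 of 90 genes by over 1.5 times. Ctrb1 went from 244.5 to 123.5 FPKM without Tmem173fl/fl mouse 3 and Ang4 from 182.1 to 67.4 without Tmem173iΔmye mouse 1. Gm42031 went from 5.04 to 0.0945 without Tmem173iΔmye mouse 2.

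Genes higher and lower in untreated than in DSS colon numbered 1065 and 2662. They numbered 1833 and 3589 with Tmem173fl/fl libraries alone, and 144 and 357 with Tmem173iΔmye libraries alone, and the cause was not tested. With 1 library left out they ran from 813 to 1367 and from 2277 to 3152. DESeq2 gave 1055 and 2891, limma 1011 and 2235. A replicate block on the sample numbers gave 1294 and 2642. Same-numbered untreated and DSS libraries of a genotype did not deviate together (r from -0.07 to -0.02), and same-numbered libraries of different genotypes were not compared. Rps3a2 was at 60.2 to 114.3 FPKM in replicate 1 of both genotypes, untreated and with DSS. It was at 110.9 in DSS Tmem173iΔmye replicate 2 and at 1.08 to 4.57 in the rest. Rps3a3 and the gene Tpm3-rs7 split the same way. Whether the numbers pair mice across genotypes was not tested.

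Depth limited the weakest genes. Of the genes at or above 1 FPKM, 1577 had a mean count under 50, and short models rest on few reads. With 6 mice, and sex, site of sampling and attached tissue not separated, the SD of a gene is a description of these libraries.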

Other observations

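Lists of blood and of further tissues were also measured in the untreated colon. The red cell genes Hbb-bs and Hba-a1, chains of hemoglobin, reached 35.2 and 31.1 FPKM in Tmem173iΔmye mouse 2, and the 5 genes of that list summed to 73.9 there against 4.80 to 18.0 FPKM in the other 5 libraries. Skeletal muscle genes summed to 6.11 ± 0.834 FPKM and squamous epithelium genes to 0.993 ± 0.653. Liver genes summed to 14.4 ± 4.13, with the thyroid hormone carrier Ttr at 8.95 ± 3.86 and albumin (Alb) at 1.84 ± 1.34.

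Stress and defence genes gave a further picture of the tissue at rest. The chaperone Hspa8 was at 268.9 ± 47.2 FPKM and the inducible Hspa1a at 3.23 ± 1.16. Saa1, an acute phase protein, was at 76.9 ± 14.9 and the oxidase Duox2 at 34.0 ± 3.53 FPKM, while Nos2, the inducible nitric oxide synthase, was at 2.45 ± 0.761. Dbp, a clock output gene with a strong daily rhythm, was at 0.672 FPKM, and the time of day of sampling was not given in the sources used here. The mitochondrial gene mt-Co3 was at 344.9 FPKM in Tmem173fl/fl mouse 3 and at 29.7 to 76.1 in the other 5. Its mean was 98.3 FPKM, against 14163.6 for mt-Co1. Whether its reads were lost or assigned to copies elsewhere in the genome was not tested, so its level is uncertain.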
